A study of Mus musculus with 8 samples.

Results

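Integrins are adhesion receptors made of 1 alpha and 1 beta subunit, and 10 of the genes that encode them were described across 8 RNA sequencing libraries of sorted tumor-infiltrating cells. The genes were taken by symbol from the 55487 genes listed in each library, and all 10 were found. They were divided, from textbook knowledge, into 6 subunits carried mainly by leukocytes (Itgal, Itgam, Itgb2, Itgae, Itgb7 and Itga4) and 4 that bind matrix or occur on most cells (Itga1, Itgb1, Itgav and Itgb3). The libraries came from C57BL/6 mice with subcutaneous tumors grown from the mouse melanoma line B16F10 and were labelled as CD8+ lymphocytes sorted by flow cytometry from the digested tumor. In the tacrolimus group, 4 mice received tacrolimus (FK506), an inhibitor of the phosphatase calcineurin, by intraperitoneal injection at 3 mg/kg every 5 days. In the vehicle group, 4 mice received vehicle by the same route every 5 days. Treatment began 7 to 9 days after tumor injection, and tumors were harvested 6 days after the first dose. The age and sex of the mice are not given in the sources used here.

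An integrin reaches the cell surface only as an alpha-beta pair, so partners are best read together. Itgal and Itgb2 form LFA-1, which binds ICAM proteins during contact between a T cell and its target, and Itgam pairs with the same Itgb2 in Mac-1 on myeloid cells. Itgae, also called CD103, pairs with Itgb7 in a receptor that binds E-cadherin and marks T cells and dendritic cells resident in epithelia. Itga4 pairs with Itgb1 or Itgb7 and binds VCAM-1 or MAdCAM-1. Itga1 with Itgb1 binds collagen, and Itgav with Itgb3 or Itgb1 binds vitronectin, fibronectin and latent TGF-beta.

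The labelled cell type was checked against its markers. Cd3e encodes a signaling chain associated with the T cell receptor. It was at 46.1, 6.53, 18.2 and 19.1 FPKM (fragments per kilobase of transcript, a level already scaled for gene length and depth) in tacrolimus replicates 1 to 4, and at 146, 40.8, 61.6 and 74.7 FPKM in vehicle replicates 1 to 4. The 10 T cell markers summed to between 45.6 and 336 FPKM in the tacrolimus libraries and between 329 and 1377 FPKM in the vehicle libraries, while 8 melanoma markers summed to between 22030 and 27020 FPKM and between 18460 and 33510 FPKM. The 10 macrophage markers summed to between 226 and 532 FPKM with tacrolimus and between 409 and 1733 FPKM with vehicle. This sum exceeded the T cell sum in every library but vehicle replicate 3. The libraries thus held RNA of melanoma cells and macrophages along with that of T cells. Sums over different genes do not give the shares of the cell types. Vehicle replicate 1 stood apart, with the highest sum of T cell, leukocyte, macrophage and neutrophil markers of the 8 libraries, and tacrolimus replicate 2 had the lowest T cell sum. The depth was estimated at between 16000000 and 19600000 fragments per library. In such bulk samples, fewer cells of a type and less RNA per cell cannot be told apart.

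RefSeq promoter sequences on GRCm38.p6 were matched by symbol for 6 of the 10 genes. Those of Itgb7 and Itgam, carried mainly by leukocytes, and of Itgav and Itgb1, present on most cells, are shown because they contrast a pair of cell-type-restricted genes with a pair of broadly expressed genes. Each is given 5′ to 3′ on the strand of its gene, from 250 bases before to 50 bases after the start, with each CG dinucleotide in capitals. Itgb7 is on the minus strand at chr15:102231886-102232185, Itgam on the plus strand at chr7:128062390-128062689, Itgav on the plus strand at chr2:83724147-83724446 and Itgb1 on the plus strand at chr8:128685404-128685703.
Itgb7: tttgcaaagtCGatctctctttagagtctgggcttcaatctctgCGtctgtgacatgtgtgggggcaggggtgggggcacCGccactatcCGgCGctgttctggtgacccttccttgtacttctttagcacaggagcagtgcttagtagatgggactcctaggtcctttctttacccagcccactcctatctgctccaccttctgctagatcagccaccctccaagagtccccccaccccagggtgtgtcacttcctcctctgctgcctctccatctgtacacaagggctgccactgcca
Itgam: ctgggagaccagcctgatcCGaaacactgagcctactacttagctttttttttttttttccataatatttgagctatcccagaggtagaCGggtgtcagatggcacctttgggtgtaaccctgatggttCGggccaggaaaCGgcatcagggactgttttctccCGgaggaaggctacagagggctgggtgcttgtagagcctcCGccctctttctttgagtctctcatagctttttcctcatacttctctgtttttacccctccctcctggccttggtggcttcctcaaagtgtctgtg
Itgav: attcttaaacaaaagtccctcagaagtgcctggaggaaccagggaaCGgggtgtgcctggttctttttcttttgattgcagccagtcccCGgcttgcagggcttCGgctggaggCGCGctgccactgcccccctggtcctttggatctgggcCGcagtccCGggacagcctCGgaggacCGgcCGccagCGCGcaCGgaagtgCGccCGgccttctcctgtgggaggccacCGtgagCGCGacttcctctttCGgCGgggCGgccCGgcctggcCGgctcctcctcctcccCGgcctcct
Itgb1: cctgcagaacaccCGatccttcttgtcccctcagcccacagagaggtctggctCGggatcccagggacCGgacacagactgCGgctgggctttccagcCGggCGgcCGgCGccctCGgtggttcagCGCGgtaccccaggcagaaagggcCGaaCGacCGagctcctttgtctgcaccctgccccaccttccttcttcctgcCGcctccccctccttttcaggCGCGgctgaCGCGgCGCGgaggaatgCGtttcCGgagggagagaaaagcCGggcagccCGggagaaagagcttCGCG
The windows of Itgb7 and Itgam held 5 and 6 CG dinucleotides, and those of Itgav and Itgb1 held 24 and 27. The median over 32851 promoter windows of the same length was 7, and as many CG dinucleotides as Itgb1 holds, or more, were found in 15.5% of them. Itga4 (10) and Itga1 (12), whose windows are not shown, lay between. The letters GGAA, the core of the sites bound by ETS factors, occurred on either strand 2 times in the Itgb7 window, 5 times in Itgam, 4 times in Itgav and 5 times in Itgb1, where 96.0% of all windows held at least 1 match and the median was 3. A GGAA match can share a base with a CG dinucleotide, and no other motif was searched. A match is a run of letters and not a measured binding site.

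All 10 subunits had at least 1 FPKM in 4 or more libraries and were tested with limma on log2(FPKM + 1) among 13032 genes. None of the 10 passed a Benjamini-Hochberg adjusted p of 0.05, a rule that called 0.0% of all genes, so the differences below are values. Itgal, Itgb2 and Itgb7 had an unadjusted p under 0.05 and were lower in the tacrolimus libraries, as were 15.8% of all genes (2056 genes lower). None of the 10 was higher at that level, as were 1.6% of all genes (208 genes). The same 3 genes did not overlap between the groups, being lower in every tacrolimus library than in any vehicle library, which held for 10.2% of all genes in the values as deposited. After median-of-ratios scaling only Itgb7 had no overlap, and after upper-quartile scaling Itgb2 and Itgb7 had none (3.48% and 3.44% of all genes). The median difference was -1.27 over the 6 leukocyte subunits and -0.05 over the 4 matrix subunits, where the median of all genes tested was -0.19. The split of all genes depended on the scaling of the libraries. With median-of-ratios scaling the genes at an unadjusted p under 0.05 were 741 higher and 735 lower ones, and with upper-quartile scaling 723 higher and 778 lower ones.

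**Figure D1:**
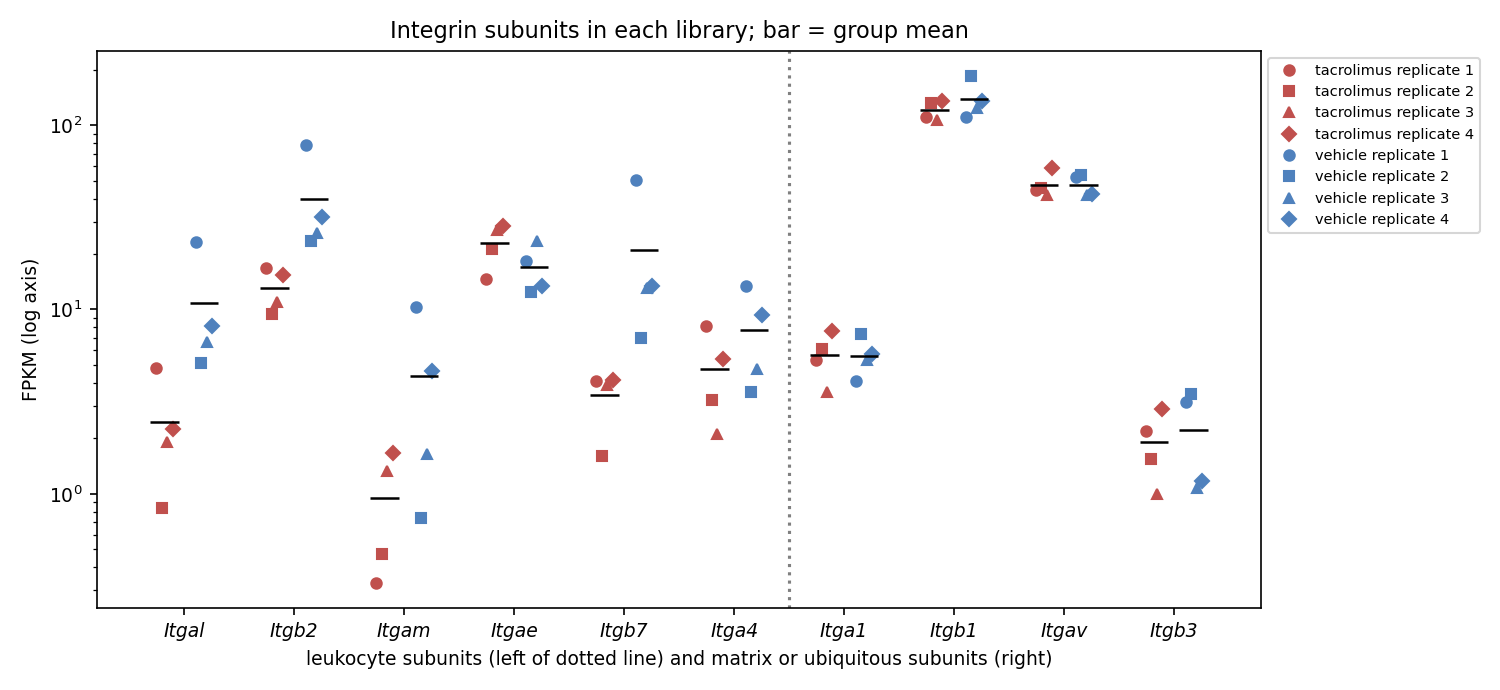
FPKM of each integrin subunit (log axis) in the 4 tacrolimus libraries (red, left) and the 4 vehicle libraries (blue, right), with one symbol per replicate number and a bar at the group mean. Itgal, Itgb2 and Itgb7 show no overlap between the groups, and Itgb1 is the most abundant of the 10 in every library.

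Both LFA-1 genes had lower levels in every tacrolimus library than in any vehicle library as deposited, but overlapped after median-of-ratios scaling. Itgb2, the beta chain (ENSMUSG00000000290; GRCm38 chromosome 10, 77530252 to 77565708) was at 16.8, 9.42, 10.95 and 15.4 FPKM in tacrolimus replicates 1 to 4, against 78.0, 23.4, 26.1 and 31.8 FPKM in vehicle replicates 1 to 4. Every tacrolimus library lay below every vehicle library, with vehicle replicate 1 well above the rest. The means were 13.1 ± 3.51 FPKM with tacrolimus and 39.8 ± 25.7 FPKM with vehicle (SD, n = 4 each), and the vehicle mean was 27.1 FPKM without replicate 1. The fitted difference was -1.39 on the log2 scale (SE 0.35, limma adjusted p = 0.183).

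Itgal, which encodes the alpha chain of LFA-1 (ENSMUSG00000030830; chromosome 7, 127296260 to 127335138), was at 4.80, 0.84, 1.91 and 2.24 FPKM in tacrolimus replicates 1 to 4, against 23.3, 5.15, 6.64 and 8.15 FPKM in vehicle replicates 1 to 4. The groups did not overlap, though tacrolimus replicate 1 came close to vehicle replicate 2. The mean was 2.45 ± 1.68 FPKM with tacrolimus and 10.8 ± 8.41 FPKM with vehicle, or 6.65 FPKM in vehicle libraries without replicate 1. The difference was -1.67 (SE 0.46, limma adjusted p = 0.193).

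Itgam, which encodes CD11b of myeloid cells, was at 0.33, 0.47, 1.33 and 1.67 FPKM in tacrolimus replicates 1 to 4, against 10.4, 0.74, 1.64 and 4.62 FPKM in vehicle replicates 1 to 4. The groups overlapped, since 2 tacrolimus libraries exceeded vehicle replicate 2. The difference was -1.15 (SE 0.53, limma adjusted p = 0.294). The vehicle mean of 4.34 FPKM was 2.33 FPKM without replicate 1, and the difference was then -0.66. Macrophage markers were lower alongside Itgam. All 10 had a lower mean in the tacrolimus libraries, as had 75.7% of all genes tested by fitted difference as deposited. Of the 10, 8 were lower at an unadjusted limma p under 0.05, where 15.8% of all genes were. Their sum ranged from 226 to 532 FPKM in the tacrolimus libraries and from 409 to 1733 FPKM in the vehicle libraries. With the macrophage level as a covariate the difference was -0.011 (SE 0.49, limma adjusted p = 0.994), and with the T cell level it was -0.21 (SE 0.67, adjusted p = 0.877). Gm49368 overlaps Itgam on the same strand, at 0.32 to 0.74 FPKM with tacrolimus and 0.38 to 1.10 FPKM with vehicle. In tacrolimus replicate 1 it was at 0.44 FPKM, against 0.33 FPKM for Itgam. How reads were divided between them bears on the Itgam level.

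Itgb7 and its partner Itgae had differences of opposite sign. Itgb7 (ENSMUSG00000001281; chromosome 15, 102215995 to 102231944) was at 4.08, 1.60, 3.88 and 4.15 FPKM in tacrolimus replicates 1 to 4, against 50.3, 7.03, 13.1 and 13.5 FPKM in vehicle replicates 1 to 4. The groups did not overlap, and vehicle replicate 1 again stood far above the rest. The mean was 3.43 ± 1.22 FPKM with tacrolimus and 21.0 ± 19.8 FPKM with vehicle, or 11.2 FPKM in vehicle libraries without replicate 1. The difference of -1.996 was the most negative of the 10 subunits (SE 0.50, limma adjusted p = 0.183).

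Itgae, which encodes CD103 (ENSMUSG00000005947; chromosome 11, 73090583 to 73147446), was at 14.7, 21.4, 27.1 and 28.3 FPKM in tacrolimus replicates 1 to 4, against 18.4, 12.5, 23.5 and 13.4 FPKM in vehicle replicates 1 to 4. It was the only leukocyte subunit with a higher mean in the tacrolimus libraries, at 22.9 ± 6.24 FPKM against 16.9 ± 5.09 FPKM in the vehicle libraries, and the groups overlapped. The difference was 0.41 (SE 0.25, limma adjusted p = 0.402). It was 0.63 with median-of-ratios scaling (limma unadjusted p = 0.0449, adjusted p = 0.4391) and with upper-quartile scaling (limma unadjusted p = 0.0358, adjusted p = 0.4135). With these scalings 741 and 723 of 13032 genes were higher at an unadjusted p under 0.05. Itgae did not follow the T cell level: tacrolimus replicate 2, with 6.53 FPKM of Cd3e, had 21.4 FPKM of Itgae, and vehicle replicate 1, with 146 FPKM of Cd3e, had 18.4 FPKM. The gene Haspin lies within Itgae on the opposite strand and was at between 2.40 and 6.01 FPKM in the tacrolimus libraries and between 3.75 and 5.40 FPKM in the vehicle libraries. The strand setting of the libraries is not given in the sources used here, so reads of the 2 genes cannot be told apart where they overlap.

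Itga4, the alpha chain of VLA-4, was at 8.17, 3.23, 2.12 and 5.42 FPKM in tacrolimus replicates 1 to 4, against 13.4, 3.55, 4.76 and 9.38 FPKM in vehicle replicates 1 to 4. The groups overlapped widely. The difference was -0.58 (SE 0.42, limma adjusted p = 0.472), and it turned positive with the level of T cell markers (0.33) or macrophage markers (0.05) as a covariate. Cerkl overlaps Itga4 on the opposite strand and was at between 1.03 and 2.96 FPKM over the 8 libraries. Its highest value was in tacrolimus replicate 2, where Itga4 was at 3.23 FPKM. As the strand setting is not given, reads of these genes cannot be told apart where they overlap.

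The matrix subunits lay closer together between the groups. Itgb1, the common partner of the collagen and fibronectin receptors (ENSMUSG00000025809; chromosome 8, 128685654 to 128733200), was at 111, 132, 107 and 135 FPKM in tacrolimus replicates 1 to 4, against 111, 185, 124 and 136 FPKM in vehicle replicates 1 to 4. The groups overlapped, with vehicle replicate 2 the highest library. The difference was -0.18 (SE 0.17, limma adjusted p = 0.587), and it was 0.05 with either of the other scalings. With the T cell marker level as a covariate it was -0.49 (SE 0.22, limma unadjusted p = 0.0476, adjusted p = 0.25). In that setting 2271 of 13032 genes were lower at an unadjusted p under 0.05.

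Itgav, the alpha chain of the vitronectin receptors, was at 44.4, 45.6, 41.7 and 58.9 FPKM in tacrolimus replicates 1 to 4, against 52.0, 53.6, 41.7 and 42.1 FPKM in vehicle replicates 1 to 4. The group means of 47.6 ± 7.69 FPKM with tacrolimus and 47.4 ± 6.34 FPKM with vehicle lay within the spread of either group (difference 0.01, SE 0.16, limma adjusted p = 0.988). Its partner Itgb3, also carried by platelets, was at 2.19, 1.55, 1 and 2.89 FPKM with tacrolimus and at 3.13, 3.47, 1.07 and 1.18 FPKM with vehicle, without separation of the groups (difference -0.10, SE 0.33, limma adjusted p = 0.889). Genes listed as platelet markers were uneven. Pf4, a platelet chemokine, was at 78.5, 47.6, 137 and 89.7 FPKM in tacrolimus replicates 1 to 4, against 589, 92.2, 57.2 and 213 FPKM in vehicle replicates 1 to 4. Ppbp, another, was at 0.30 to 1.66 FPKM with tacrolimus and 0.84 to 27.4 FPKM with vehicle (difference -1.94, SE 0.77, limma adjusted p = 0.252). Both overlapped between the groups and were highest in vehicle replicate 1. The platelet receptor chains Gp1ba and Itga2b were at or below 0.06 and 0.53 FPKM in every library. Gp9 and Gp1bb, the other platelet genes listed, were at or below 1.08 and 1.16 FPKM. The mean of Gp9 was higher with tacrolimus (0.53 FPKM) than with vehicle (0.365 FPKM). Cd14, a macrophage marker, was also highest in vehicle replicate 1, at 186 FPKM. Which cells gave the Pf4 RNA was not tested.

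Itga1, the alpha chain of a collagen receptor that also marks some resident T cells, was at 5.30, 6.07, 3.58 and 7.61 FPKM in tacrolimus replicates 1 to 4, against 4.07, 7.39, 5.31 and 5.73 FPKM in vehicle replicates 1 to 4. The groups overlapped, and the difference was -0.01 (SE 0.24, limma adjusted p = 0.986). It was 0.18 with either of the other scalings. Pelo lies within Itga1 on the same strand and was at between 8.48 and 13.02 FPKM over the 8 libraries. Gm49395 overlaps Itga1 on the same strand and was at between 0.74 and 3.45 FPKM. How reads were divided among these genes bears on the Itga1 level.

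**Figure D2:**
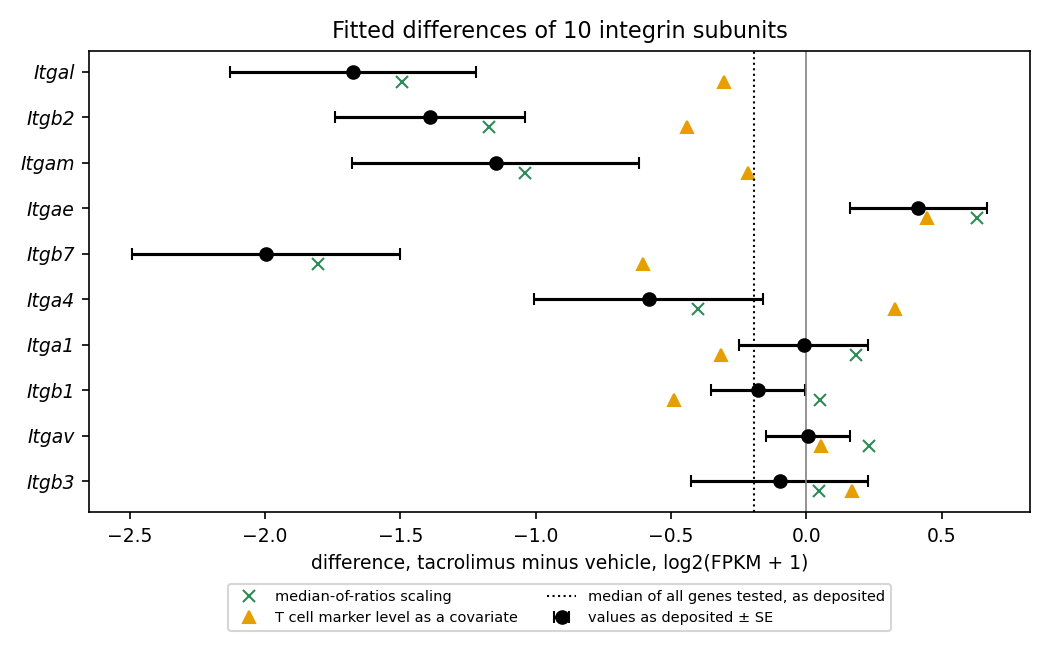
Difference between tacrolimus and vehicle libraries on the log2(FPKM + 1) scale for each subunit, with its standard error (black), the value after median-of-ratios scaling (green crosses) and the value with the T cell marker level as a covariate (orange triangles). Itgb7, Itgal and Itgb2 are farthest below the dotted median of all genes in the values as deposited and lie between -0.60 and -0.31 with the covariate. The matrix subunits Itgb1 (-0.49) and Itga1 (-0.32) lie in that same range with the covariate.

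Levels per length ordered the subunits over all 8 libraries as Itgb1, Itgav, Itgb2, Itgae, Itgb7, Itgal, Itga4, Itga1, Itgam and Itgb3, by mean FPKM from 130.0 to 2.06. The order differed between the groups. By tacrolimus means Itgae (22.9 FPKM) stood above Itgb2 (13.1 FPKM), Itga1 (5.64 FPKM) and Itga4 (4.74 FPKM) above Itgb7 (3.43 FPKM) and Itgal (2.45 FPKM), and Itgb3 (1.91 FPKM) above Itgam (0.95 FPKM). By vehicle means Itgb7 (21.0 FPKM) stood above Itgae (16.9 FPKM), which rested on vehicle replicate 1. Without that library the vehicle means were 11.2 FPKM for Itgb7 and 16.4 FPKM for Itgae. Itgb1 exceeded Itgav in 8 of 8 libraries without overlap of their ranges. The ranges of every other pair of neighbours in this order overlapped. Itgav exceeded Itgb2 in 7 of 8 libraries, the exception being vehicle replicate 1. Itgae exceeded Itgb7 in 6 of 8, with Itgb7 the higher in vehicle replicates 1 and 4.

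The balance of partners followed from these levels and was described as a ratio of FPKM values, without a test. Itgae per Itgb7 was 3.60, 13.4, 6.99 and 6.82 in tacrolimus replicates 1 to 4, against 0.365, 1.77, 1.79 and 0.992 in vehicle replicates 1 to 4. The alpha transcript exceeded the beta transcript in all 4 tacrolimus libraries and in 2 of the vehicle libraries, and the groups did not overlap. Itgb7 alone did not overlap between the groups either, while Itgae alone did. A lower denominator raises the ratio of any gene that does not follow it. Bulk values do not show whether both transcripts came from the same cells. Itgb7 has a second partner, and Itga4 per Itgb7 overlapped between the groups, at 0.546 to 2.02 with tacrolimus and 0.266 to 0.697 with vehicle. Itgal per Itgb2 was between 0.0892 and 0.286 with tacrolimus and between 0.220 and 0.299 with vehicle. Itgav per Itgb3 was between 20.3 and 41.7 with tacrolimus and between 15.4 and 39.0 with vehicle, so that far more Itgav than Itgb3 was present in every library. Of the 8 ratios formed, Itgae per Itgb7 was the only one without overlap.

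**Figure D3:**
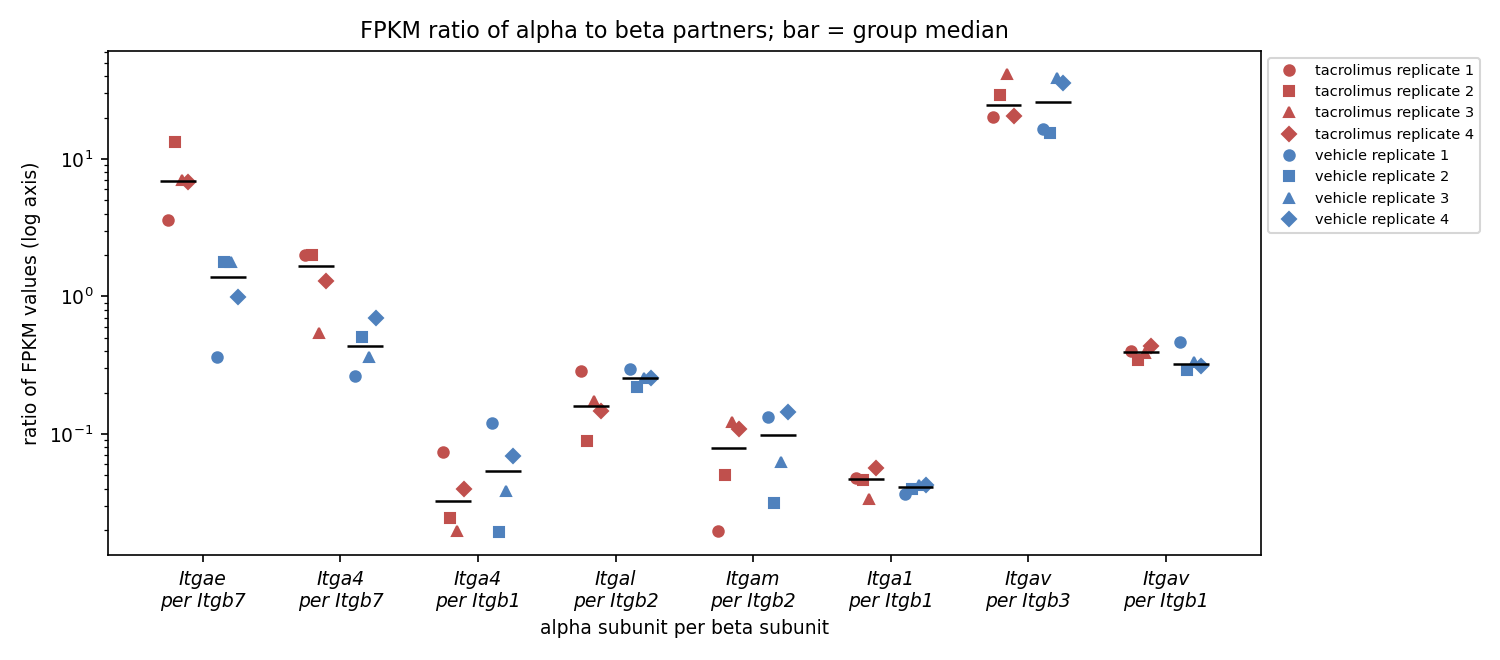
Ratio of the FPKM of each alpha subunit to that of its beta partner (log axis) in the tacrolimus (red, left) and vehicle (blue, right) libraries, with a bar at the group median. Only Itgae per Itgb7 separates the groups, with medians of 6.91 and 1.38, and its denominator Itgb7 alone also separates them.

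Levels of the 6 leukocyte subunits were set against Ptprc, which encodes CD45 of all leukocytes. This ratio was chosen after the values were seen and is a description. Itgal per Ptprc was 0.181, 0.147, 0.135 and 0.138 in tacrolimus replicates 1 to 4, against 0.189, 0.224, 0.209 and 0.170 in vehicle replicates 1 to 4, and the groups overlapped. Itgb2 per Ptprc overlapped as well, at 0.636 to 1.65 with tacrolimus and 0.631 to 1.02 with vehicle. Itgb7 per Ptprc was 0.154, 0.280, 0.275 and 0.255 with tacrolimus and 0.408, 0.305, 0.413 and 0.281 with vehicle, and the groups did not overlap, though the nearest libraries were almost level. Per Cd3e, Itgb7 was at 0.0886 to 0.245 with tacrolimus and 0.172 to 0.345 with vehicle, which overlapped. The other 3 had higher medians per Ptprc with tacrolimus, with overlap of the groups: Itgae at 1.83 with tacrolimus and 0.411 with vehicle, Itga4 at 0.321 and 0.152, and Itgam at 0.0882 and 0.0678. Per Cd3e, the median of Itgae was 1.49 with tacrolimus and 0.242 with vehicle, again with overlap. Mean Ptprc was 15.6 FPKM with tacrolimus and 56.5 FPKM with vehicle, and mean Cd3e 22.5 and 80.8 FPKM. These lower denominators raise the ratio of any gene that does not follow them, and Itgae had an r of 0.04 with the T cell marker level. Its highest ratios, 3.74 per Ptprc and 3.28 per Cd3e, were in tacrolimus replicate 2, the library with the lowest T cell sum.

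The T cell markers were lower alongside these genes. All 10 of them, and all 7 markers of leukocytes in general, had an unadjusted p under 0.05 and a lower mean in the tacrolimus libraries, where 15.8% of all genes did. The leukocyte marker sum was between 157 and 590 FPKM with tacrolimus and between 603 and 2726 FPKM with vehicle. With the mean level of the T cell markers as a covariate the differences were -0.31 for Itgal (SE 0.30, limma adjusted p = 0.573), -0.44 for Itgb2 (SE 0.31, adjusted p = 0.419) and -0.60 for Itgb7 (SE 0.41, adjusted p = 0.397). With the macrophage level as a covariate they were -0.79, -0.68 and -0.99, with adjusted p of 0.477, 0.460 and 0.458 in limma. The median of all genes tested was -0.29 with the T cell covariate and -0.23 with the macrophage covariate. Over all alternatives run, the limma adjusted p ran from 0.0344 to 0.573 for Itgal, from 0.0451 to 0.46 for Itgb2 and from 0.0548 to 0.458 for Itgb7.

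**Figure D4:**
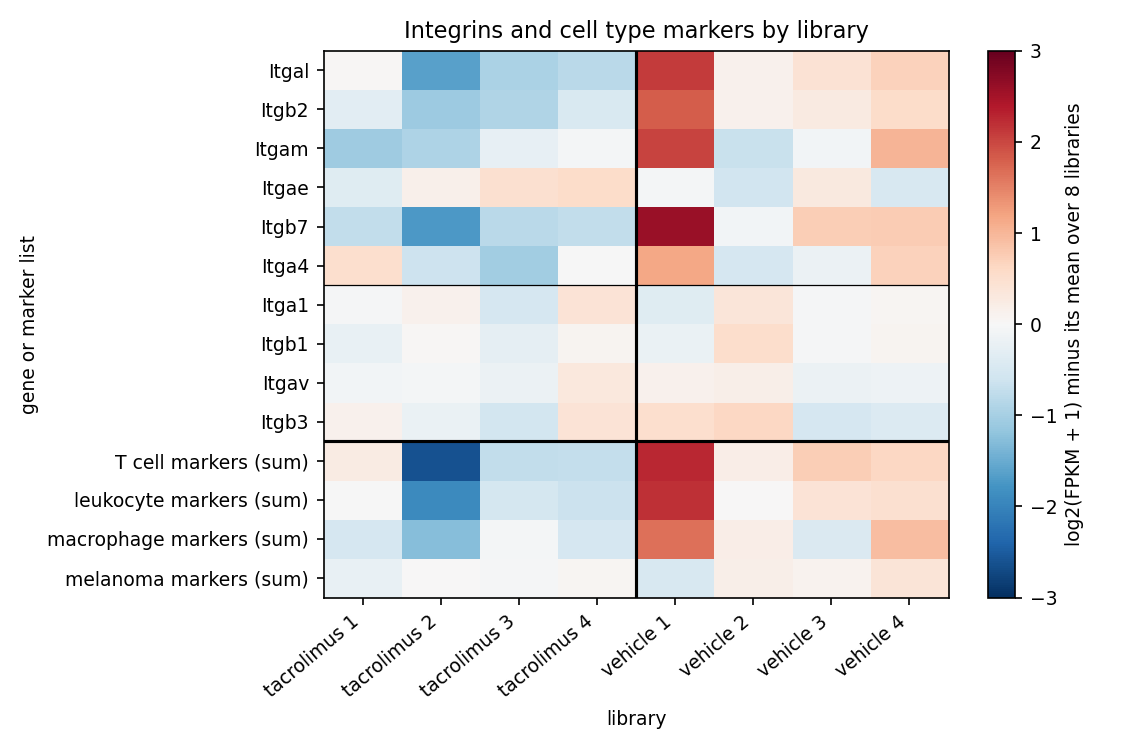
Level of each subunit and summed level of 4 marker lists in every library, as log2(FPKM + 1) minus its own mean over the 8 libraries (red above, blue below). Vehicle replicate 1 is the reddest column for Itgal, Itgb2, Itgam, Itgb7 and Itga4 and for the T cell, leukocyte and macrophage markers, and Itgae and the matrix subunits vary little.

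Likeness between genes was described by Pearson's r of log2(FPKM + 1) over the 8 libraries after each group mean was taken out. The libraries differ in cell makeup, which all genes share, and r over 8 points is imprecise. Itgb2 varied with Itgal (r = 0.948) and with Itgb7 (r = 0.942), and Itgal with Itgb7 (r = 0.905). The matrix subunits fell into 2 pairs, Itga1 with Itgb1 (r = 0.859) and Itgav with Itgb3 (r = 0.901), with r between 0.405 and 0.55 across the pairs. Itgb3 had an r of 0.446 with Itgb2, much the same as with Itga1 (0.439) or Itgb1 (0.405). Itgb1 ran against Itgb7 (r = -0.769). Itgae had an r of no more than 0.359 with any other of the 10 genes.

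The T cell marker level had an r of 0.949 with Itgal, 0.872 with Itgb7, 0.855 with Itgb2 and 0.04 with Itgae. The melanoma marker level had an r of 0.816 with Itgb1 and 0.786 with Itga1, but of 0.066 with Itgav and -0.117 with Itgb3. Among all genes tested, the 3 most like Itgal were Ifitm10, Shisa5 and Lcp1, an actin-bundling protein of leukocytes, with r from 0.995 to 0.998. Those most like Itgb2 were Cblb, a ubiquitin ligase of T cell tolerance, Unc13d, which primes cytotoxic granules, and Myo1f (r from 0.989 to 0.995). Those most like Itgb7 were A430093F15Rik, the MHC class II gene H2-Aa and Gimap9 (r from 0.987 to 0.996). Itgae was most like Slc5a4b (r = 0.978), followed by Gm42941 and Tmem202. Slc5a4b was at 294 FPKM in tacrolimus replicate 2 and 392 FPKM in vehicle replicate 1. Itgb1 was most like Zwint, Psmd2 and Rab7, genes of the kinetochore, the proteasome and late endosomes (r from 0.996 to 0.999). Itgam was most like 4930533N22Rik, Tnni1 and Lhx2, Itga4 most like Epha5, Iffo2 and Slc25a27, Itga1 most like Kcnab2, Diablo and Pcyt2, and Itgb3 most like Arf2, Ormdl3 and Mtmr10. For Itgav they were Orc1, an identifier without a symbol and Slbp.

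The 17 other integrin subunit genes were mostly low. Of them 6 were tested and 7 stayed below 1 FPKM in every library. Itga3, a laminin receptor chain, was at 140, 134, 175 and 145 FPKM in tacrolimus replicates 1 to 4, against 83.6, 137, 96.4 and 36.7 FPKM in vehicle replicates 1 to 4. Only vehicle replicate 2 reached the tacrolimus range. Itga3 was the only one of the 6 with an unadjusted p under 0.05, a level at which 1.6% of all genes were higher (difference 0.88, SE 0.33, limma adjusted p = 0.233). The next by p were Itgb5, at 10.1 ± 1.78 FPKM with tacrolimus and 13.6 ± 2.16 FPKM with vehicle, Itga5, at 12.9 ± 3.51 FPKM with tacrolimus and 16.7 ± 4.39 FPKM with vehicle, and Itga9, at 35.2 ± 12.3 FPKM with tacrolimus and 38.5 ± 9.79 FPKM with vehicle. Itgax, the CD11c chain of dendritic cells, was at 0.11 to 0.74 FPKM with tacrolimus and 0.70 to 2.35 FPKM with vehicle, and too few libraries reached the minimum for a test.

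The most abundant cell-surface ligands by mean FPKM were Thy1, Jam3 and Icam2. Of 11 listed, 7 were tested and 1 had an unadjusted p under 0.05 and a lower mean with tacrolimus, near the 15.8% of all genes. Icam1, the main ligand of LFA-1, was at 4.14, 0.82, 2.94 and 4.11 FPKM in tacrolimus replicates 1 to 4, against 24.8, 6.19, 5.81 and 9.04 FPKM in vehicle replicates 1 to 4. The groups did not overlap (difference -1.52, SE 0.46, limma adjusted p = 0.195), and the vehicle mean of 11.5 FPKM was 7.01 FPKM without replicate 1. Vcam1, the ligand of VLA-4, was at 1.33 ± 0.58 FPKM with tacrolimus and 2.49 ± 0.87 FPKM with vehicle. Thy1 was at 10.5 ± 7.30 FPKM with tacrolimus and 22.7 ± 17.8 FPKM with vehicle (13.9 FPKM without vehicle replicate 1), and Jam3 at 14.04 ± 2.06 FPKM with tacrolimus and 16.8 ± 3.12 FPKM with vehicle. Cdh1, the E-cadherin bound by CD103, was at 0.34 to 3.92 FPKM with tacrolimus and 0.87 to 3.85 FPKM with vehicle. Madcam1 was at no more than 0.05 FPKM in any library.

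Among matrix and secreted ligands, 14 of 15 were tested and 2 had an unadjusted p under 0.05, both lower with tacrolimus, again near the 15.8% of all genes. Spp1, which encodes osteopontin, a ligand of integrins with the alpha V chain, was at 255, 251, 244 and 219 FPKM in tacrolimus replicates 1 to 4, against 682, 404, 331 and 480 FPKM in vehicle replicates 1 to 4. The groups lay apart and the tacrolimus libraries were close to one another (difference -0.92, SE 0.20, limma adjusted p = 0.179). Thbs1, which encodes thrombospondin, was at 4.00 ± 1.53 FPKM with tacrolimus and 22.6 ± 27.5 FPKM with vehicle, where replicate 1 alone had 63.0 FPKM. The collagen genes Col1a1 and Col1a2 were at 5.74 ± 1.91 and 6.22 ± 2.06 FPKM with tacrolimus, and at 7.78 ± 1.12 and 8.69 ± 2.30 FPKM with vehicle.

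Regulators and adaptors of integrins found mainly in leukocytes mostly had lower levels with tacrolimus, as had the T cell markers. Of 10 tested, 8 had an unadjusted p under 0.05 and a lower mean, where 15.8% of all genes did, and 5 did not overlap between the groups, where 10.2% did. Their median difference was -1.12. Rassf5, a Rap1 effector that binds the LFA-1 alpha chain, was at 4.02, 1.03, 2.55 and 3.43 FPKM in tacrolimus replicates 1 to 4, against 21.8, 4.96, 7.32 and 10.8 FPKM in vehicle replicates 1 to 4. Skap1, a T cell adaptor of the same step, was at 5.53 ± 3.498 FPKM with tacrolimus and 23.8 ± 17.9 FPKM with vehicle (15.0 FPKM without vehicle replicate 1). Apbb1ip, which encodes RIAM and brings talin to the membrane, was at 3.04 ± 0.68 FPKM with tacrolimus and 7.23 ± 2.70 FPKM with vehicle. Parvg was at 1.94 ± 0.81 FPKM with tacrolimus and 7.44 ± 5.95 FPKM with vehicle (4.48 FPKM without vehicle replicate 1). Fermt3, the kindlin of blood cells, was the only adaptor of this list with a higher mean with tacrolimus, at 207, 267, 368 and 357 FPKM, against 332, 233, 308 and 216 FPKM with vehicle. It was thus abundant in the library with the fewest T cell transcripts, and the groups overlapped (difference 0.12, SE 0.22, limma adjusted p = 0.777). It is named here in addition to the genes taken by p, after its values were seen.

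Adaptors found in most cells were close to the background. Of 22 tested, 4 were lower and 1 was higher with tacrolimus at an unadjusted p under 0.05, where 15.8% and 1.6% of all genes were. The groups did not overlap for 4 of them, all lower, where 10.2% of all genes did not. Their median difference was -0.19, as was that of all genes. Rap1b, the GTPase that starts integrin activation, was at 134 ± 18.6 FPKM with tacrolimus and 204 ± 53.7 FPKM with vehicle, without overlap. Zyx, a focal adhesion protein, was at 67.5 ± 9.21 FPKM with tacrolimus and 92.9 ± 13.4 FPKM with vehicle, also without overlap. Flna was at 48.9 ± 10.0 FPKM with tacrolimus and 67.5 ± 12.3 FPKM with vehicle, and Pxn at 7.38 ± 1.91 FPKM with tacrolimus and 10.6 ± 1.32 FPKM with vehicle. The limma adjusted p of these 4 genes ran from 0.202 to 0.265. Tln1, the talin that binds beta tails and is named after its values were seen, had a range of 35.5 to 37.1 FPKM with tacrolimus and 39.1 to 44.8 FPKM with vehicle.

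**Figure D5:**
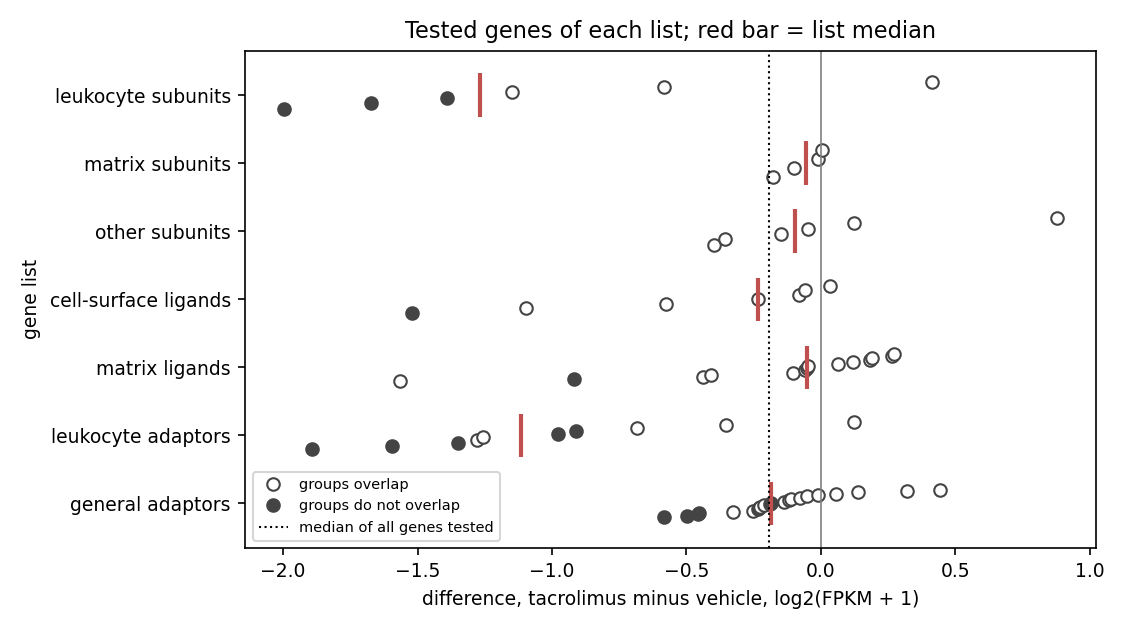
Difference between tacrolimus and vehicle libraries on the log2(FPKM + 1) scale for the tested genes of each list, with open circles where the groups overlap, filled circles where they do not, a red bar at the list median and a dotted line at the median of all genes. Of these integrin, ligand and adaptor lists, leukocyte subunits and leukocyte adaptors lie farthest to the left, with medians of -1.27 and -1.12, and matrix subunits lie near 0.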

How the data were processed

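RNA sequencing libraries of 8 mice were analysed, 4 per group, grouped and numbered by the sample titles. The submitters' processing notes name HISAT2 2.1.0, RSEM 1.3.1, DESeq2 1.24.0 and the build GRCm38.p6, without role or order. The authors deposited 1 value per gene and library, read here as FPKM, already scaled for length and library size. No header names the unit, which was inferred from the values. The libraries sum to between 890182 and 926808, and low values of single-transcript genes of 500 to 1500 bases step with length. Of these values 86.9% to 88.6% lay within 0.15 steps of a whole multiple, against 30.0% for evenly spread values. That share is the best over the depths and length corrections tried, a search that the 30.0% does not allow for. Such steps would also occur in other length-scaled units. The best fit gave the depth estimate. Reads were not recovered for most genes, so no count model was used and no counting interval is given.

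Symbols and coordinates came from GENCODE M21 (GRCm38), which matched 55141 of 55487 identifiers. The main design foresaw both counts and normalized values. Genes reaching 1 FPKM in 4 or more libraries were compared on log2(FPKM + 1), which understates changes of low genes, with limma 3.58.1 (lmFit, eBayes with trend) in R 4.3.3 and Benjamini-Hochberg adjustment over 13032 genes. On simulated data of this comparison with 13032 genes, 52 of 100 genes changed by 1 and 91 of 100 changed by 2 (log2) were recovered, with 5 of 12832 unchanged genes called. Each gene was drawn independently with its own spread and the changed genes were picked at random. Shifts in cell makeup that many genes share were thus not simulated, and recovery in the real libraries can differ. The members and lists were chosen with earlier results of these data known. All 10 members are named, the 4 smallest p of each pathway list, and the 3 genes most like each member. Fermt3, Tln1, Cdh1, Madcam1, Itgax and some of the genes overlapping a member are named besides, after their values were seen. In any pair of libraries at most 0.259% of genes at a mean FPKM of 1 or more had identical values above 0. Python 3.11.15 and matplotlib 3.10.9 made the plots. Alternatives were other pseudocounts, filters, scalings, variance and weight settings, marker covariates, the replicate block and each library left out.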

Additional observations from a re-analysis of the deposited data

Results flagged for a closer look

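In 4 of 20 groups of 4 FPKM values tested (10 genes in 2 groups), 1 library lay far from the other 3 by Dixon's criterion. Chance gives about 1 in 20 for independent, normally spread values, which these were not known to be. Itgal, Itgb2 and Itgb7 varied together (r from 0.905 to 0.948), so their flags are not separate events. The criterion was not applied on the log2 scale, which draws high values in. Tacrolimus replicate 2 was low in Itgb7, at 1.60 FPKM. Vehicle replicate 1 was high in Itgb7 at 50.33 FPKM, in Itgb2 at 77.96 FPKM and in Itgal at 23.29 FPKM. The same libraries had the lowest and the highest T cell marker sums, at 45.6 and 1377 FPKM.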

How the results depend on the processing

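Itgal, Itgb2, Itgb7, Itgam and Itgae kept their direction under every alternative run, but the difference of Itgam was -0.011 (SE 0.489) with the macrophage covariate, against -1.148 without it. No gene of the 13032 passed the adjusted threshold in the main comparison, which had 208 higher and 2056 lower genes at an unadjusted p under 0.05. Leaving out 1 library gave between 0 and 1 genes, the 1 without vehicle replicate 1. With the replicate number as a block, 121 genes passed (115 lower, 6 higher), among them Itgal (adjusted p = 0.0344 in limma) and Itgb2 (adjusted p = 0.0451), both with larger values under the other alternatives (up to 0.573 and 0.460). The numbers are not known to pair the mice: deviations of same-numbered libraries had correlations of 0.215, 0.277, -0.0197 and -0.0217. The count of 3 subunits without overlap held without vehicle replicate 1 (19.0% of all genes then) and without tacrolimus replicate 2 (13%), both added after seeing the data. With upper-quartile scaling it was 2 (Itgb2 and Itgb7; 3.44% of all genes) and with median-of-ratios scaling 1 (Itgb7; 3.48%). Other differences changed sign. With median-of-ratios and upper-quartile scaling they were 0.183 and 0.181 for Itga1, 0.049 and 0.048 for Itgb1, and 0.045 and 0.049 for Itgb3. With library weights they were 0.021 for Itga1 and 0.142 for Itgb3. With the T cell and macrophage covariates they were 0.328 and 0.053 for Itga4, against -0.583 without them, and 0.168 and 0.134 for Itgb3. With 1 library left out, they ran from -0.147 to 0.156 for Itga1, from -0.099 to 0.067 for Itgav and from -0.281 to 0.089 for Itgb3. The cause of these changes was not tested. The minimum mean FPKM of 5 left Itgam and Itgb3 untested. Subunits near 1 FPKM, such as Itgam and Itgb3, rest on the fewest fragments.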
